A study of Mus musculus with 82 samples.

Results

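Dermal fibroblasts make and remodel the connective tissue of the skin, and 39 genes of that programme were followed here in mouse ear skin inflamed with imiquimod. They were chosen by name, with earlier results of these data known. All 39 were found among the 56941 genes of both count tables and passed the filter on low counts in both experiments. The list holds 6 fibrillar collagen chains, 3 chains of collagen VI, the chains of collagens XII, XIV and XV, 4 adhesive and matricellular glycoproteins, 5 proteoglycans, 8 elastic fibre proteins, 4 lysyl oxidases, 5 surface proteins of fibroblasts and related cells, and the protease cathepsin K. Right ears of female C57BL/6J Rj mice were punched for RNA, which gave 82 libraries in 14 groups, the age of the animals not being given in the sources used here. In the time course, ears were taken on days 2, 5 and 8 from mice given IDOR-1117-2520, an inhibitor of the chemokine receptor CCR6, together with imiquimod cream (6 ears a day), from mice given imiquimod alone (6 ears a day) and from sham mice, whose treatment the labels call vehicle (6, 4 and 6 ears on days 2, 5 and 8). In the start-day experiment the inhibitor was begun on day 0, 3 or 5 (6 ears each) and set against imiquimod alone (6) and sham (6). Imiquimod was spread on the ears daily from day 0, and the inhibitor was given in the drinking water, begun, per the protocol, at least a day before the cream, the later starts being given by the labels alone. The time field of the start-day labels reads day 8, 5 and 3 for the inhibitor begun on days 0, 3 and 5, and day 8 for imiquimod and sham. It was read here as the time on the inhibitor, and if it gives the day an ear was taken, the later starts and the imiquimod ears set beside them differ in that day as well. Libraries are named below by the numbers their labels give. Nothing in the labels says which ears came from separate cages or litters, so p-values measure the spread between these libraries.

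Collagens I and III form the thick fibres that carry load in the dermis, collagen V starts and thins those fibres, and collagen VI forms a beaded network around cells. Elastin and its microfibril partners give recoil, small leucine-rich proteoglycans coat and space the collagen fibres, and lysyl oxidases cross-link both fibre systems. Tenascin-C and versican are low in resting adult skin and are known from wounds, tumours and psoriasis. Imiquimod activates Toll-like receptor 7, and repeated application to mouse skin gives a psoriasis-like inflammation in which CCR6, the receptor of Ccl20, is carried by IL-17-producing lymphocytes.

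Levels are given as CPM, counts scaled to library size with TMM factors. For each group of 6 ears the lowest, the median and the highest value are given, and for the 4 sham ears of day 5 each value. Log2 fold changes are edgeR estimates ± SE, and a gene was called when its p-value, adjusted over all genes tested in that experiment, was under 0.05. Total counts were 13.1 M to 35.4 M a library in the time course and 24.1 M to 35.5 M when the start day was varied.

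In sham ears the genes differed widely in level. Per kilobase of exon, Sparc, a collagen-binding glycoprotein, led in the day 8 ears of sham mice with 539.7 CPM per kilobase, ahead of Col1a1 with 306, Dcn with 301, Bgn with 225 and Col6a1 with 193. Col3a1 stood in place 6 with 178. In imiquimod ears of day 8 Col3a1 led with 343 CPM per kilobase, followed by Sparc with 326 and Col1a1 with 291. Exon lengths are those of GENCODE M21 on GRCm38 and not of the build used for counting, GRCm39, so these values are approximate.

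Sequences upstream of the annotated start are shown for 4 members: Tnc and Vcan, which were higher in all 4 comparisons of imiquimod with sham, and Ogn and Col1a2, which were lower in all 4. They are the 250 bases before the RefSeq start on GRCm38.p6, 5′ to 3′ on the gene's strand, and where a gene had more than 1 start the most upstream one was taken.
Tnc, minus strand, chr4:64047016-64047265: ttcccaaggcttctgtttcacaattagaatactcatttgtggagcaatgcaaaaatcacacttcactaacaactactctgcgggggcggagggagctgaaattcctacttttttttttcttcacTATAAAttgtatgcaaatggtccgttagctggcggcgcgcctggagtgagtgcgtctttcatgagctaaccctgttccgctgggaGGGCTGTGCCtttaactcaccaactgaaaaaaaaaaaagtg
Vcan, minus strand, chr13:89742513-89742762: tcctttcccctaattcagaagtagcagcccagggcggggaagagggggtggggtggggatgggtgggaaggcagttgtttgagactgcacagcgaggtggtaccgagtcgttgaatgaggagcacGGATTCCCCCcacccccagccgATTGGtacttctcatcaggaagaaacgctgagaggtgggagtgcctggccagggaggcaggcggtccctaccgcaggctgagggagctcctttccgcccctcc
Ogn, plus strand, chr13:49607765-49608014: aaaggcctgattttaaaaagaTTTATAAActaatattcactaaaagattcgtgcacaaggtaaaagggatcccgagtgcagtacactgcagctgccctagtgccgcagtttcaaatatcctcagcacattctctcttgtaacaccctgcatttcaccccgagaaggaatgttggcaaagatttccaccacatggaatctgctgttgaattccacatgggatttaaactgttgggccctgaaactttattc
Col1a2, plus strand, chr6:4505368-4505617: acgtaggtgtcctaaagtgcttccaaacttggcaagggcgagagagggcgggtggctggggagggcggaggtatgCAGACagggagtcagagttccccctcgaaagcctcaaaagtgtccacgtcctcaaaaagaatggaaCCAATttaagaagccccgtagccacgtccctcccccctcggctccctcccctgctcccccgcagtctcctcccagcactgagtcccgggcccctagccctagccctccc
Capitals mark matches, on either strand, to the letters searched. For the TATA box these were TATAAA and, as a variant, TATATAA. The box named for its letters was searched as CCAAT, an AP-1 match as TGANTCA, an NF-kB match as GGGNNNNNCC, a SMAD match as CAGAC and a STAT match as TTCNNNGAA, and the CArG box was searched as well. Tnc held TATAAA, at bases -126 to -121 from its start, and an NF-kB match. Vcan held a CCAAT box and an NF-kB match on the opposite strand, and Col1a2 a CCAAT box and CAGAC. Ogn held TATAAA on both strands in overlapping copies, at bases -227 to -222 and -229 to -224. The TATAAA matches of Tnc and Ogn thus all lay far from the start. Over the 23 members with a sequence in the table, 1 window a gene, 12 (52.2%) held the NF-kB letters, against 45.4% of 27025 genes, 12 (52.2%) held CAGAC, against 42.2%, and 6 (26.1%) held CCAAT, against 34.5%. TATAAA was present in 3 members (13.04%), against 12.98% of genes, and TGANTCA in 1 (4.35%), against 6.85%. TATATAA, the STAT letters and the CArG box were in none of the 23 windows, against 3.26%, 7.14% and 1.41% of genes. A match describes the letters in the window and says nothing of binding. The table held no window for Col1a1, Col5a2, Col12a1, Col14a1, Fn1, Dcn, Lum, Eln, Mfap4, Mfap5, Lox, Loxl1, Loxl2, Loxl3, Pdgfrb and Thy1.

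Most of the 39 genes were lower with imiquimod on day 2 and in the start-day experiment, and the set was divided on days 5 and 8. On day 2, 26 were called lower and 5 higher in imiquimod than in sham ears, where 28.5% and 29.2% of all tested genes were called, and the median log2 fold change over the members was -0.33, against -0.03 over all genes tested. On day 5, 12 were lower and 14 higher (35.9% and 34.6% of all genes), with a median of 0.04, which turned to -0.04 with upper-quartile scaling factors and to -0.0019 without sham library 21. On day 8, 14 were lower and 14 higher (33.6% and 34.5% of all genes), with a median of 0.02, which was -0.03 without imiquimod library 48. The start-day experiment had 30 lower and 3 higher (39.9% and 38.1% of all genes), with a median of -0.66. The counts of days 5 and 8 in each direction therefore lay near the share of all genes, while the lower calls of day 2 and of the start-day experiment were well above it. Whole ear punches were sequenced and CPM are shares of a library. Fewer fibroblasts, less RNA per fibroblast and a larger share of RNA from other cells cannot be told apart in any of these values.

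By ear, the median over the 39 genes of log2 CPM minus the sham mean ran, in imiquimod ears, over -0.40 to -0.29 on day 2, -0.02 to 0.10 on day 5, -0.19 to 0.17 on day 8 and -0.87 to -0.57 in the start-day experiment. Sham ears ran over -0.21 to 0.27, -0.09 to 0.14, -0.11 to 0.10 and -0.16 to 0.10 in the same order. The groups did not overlap on day 2 or in the start-day experiment and overlapped on days 5 and 8. As a share of all counts, the 39 genes took 1.49 to 1.81% in imiquimod ears and 1.70 to 2.13% in sham ears of day 8. In the start-day tables they took 1.37 to 1.68% in imiquimod ears and 2.61 to 3.28% in sham ears. The imiquimod ears of day 8 and of the start-day experiment overlapped in this share and the sham ears did not, the 2 tables being separate.

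**Figure D1:**
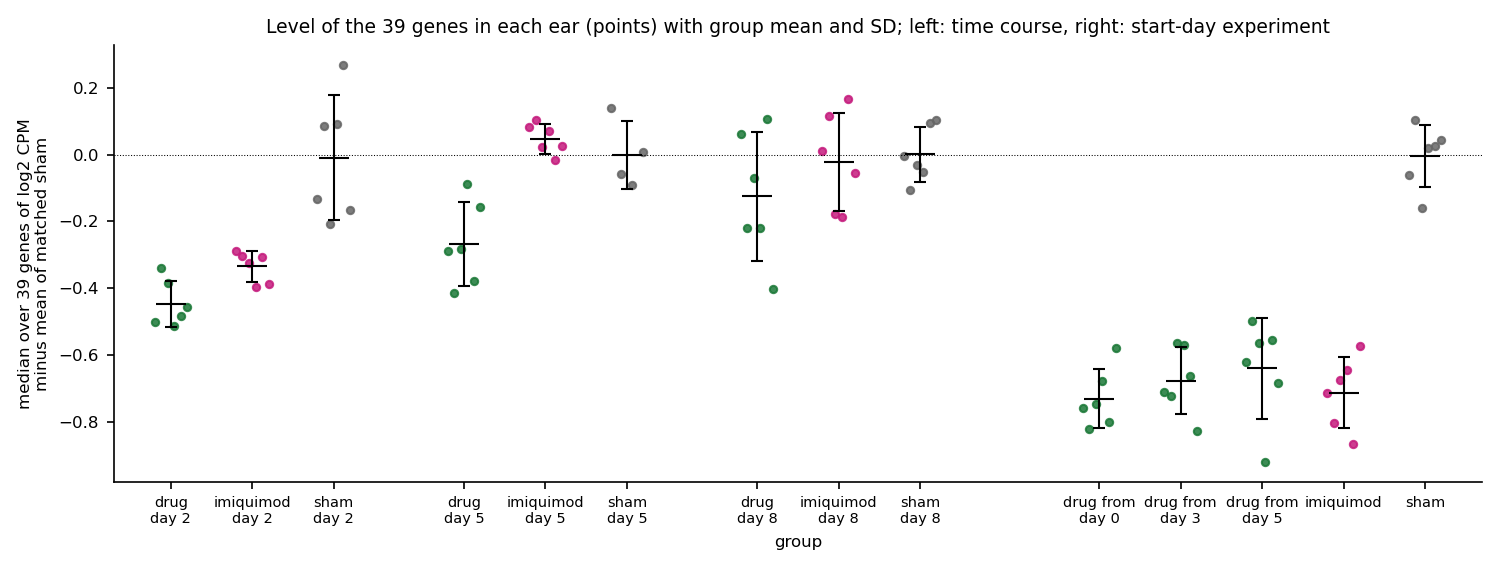
Each point is 1 ear, and the y axis gives the median over the 39 genes of log2 CPM minus the mean of the sham ears of the same day or experiment; bars are the group mean and SD. Imiquimod ears run over -0.40 to -0.29 on day 2, lie around 0 on days 5 and 8, and run over -0.87 to -0.57 in the start-day experiment.

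Signal of other tissues moved in the same comparisons. The summed CPM of 8 skeletal muscle markers was 3005 to 3821 in imiquimod and 4679.8 to 5933 in sham ears on day 2, 1668 to 2698 in imiquimod and 4139 to 5235 in sham ears on day 5, and 1781 to 2769 in imiquimod and 2452 to 4864 in sham ears on day 8. In the start-day experiment it was 1339.9 to 1733 in imiquimod and 5911 to 6238 in sham ears, with no overlap. The 7 cartilage markers summed to 342 to 419.5 in imiquimod and 750.2 to 943 in sham ears on day 8, and to 231 to 268 in imiquimod and 746 to 902 in sham ears of the start-day experiment. There the 7 adipocyte markers summed to 157 to 189 in imiquimod and 419 to 521 in sham ears, and the 7 Schwann cell markers to 241 to 275 in imiquimod and 903 to 1002 in sham ears. On the other side, the 6 basal keratinocyte markers summed to 22715 to 26658 in imiquimod and 10889 to 11885 in sham ears, and the 6 neutrophil markers of 7 that passed the filter to 7135 to 9565 in imiquimod and 3.86 to 7.03 in sham ears. In the time course 1 of the 7 neutrophil markers was at 0 in all sham groups. Of the 6 fibroblast markers, 5 are themselves among the 39 genes, and none of the 6 was at 0 in any library group. The sixth, Dpt, was lower in imiquimod ears on day 8 (-0.89 ± 0.09) and in the start-day experiment (-1.89 ± 0.07). The part of these tissues in the results was not tested.

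**Figure D2:**
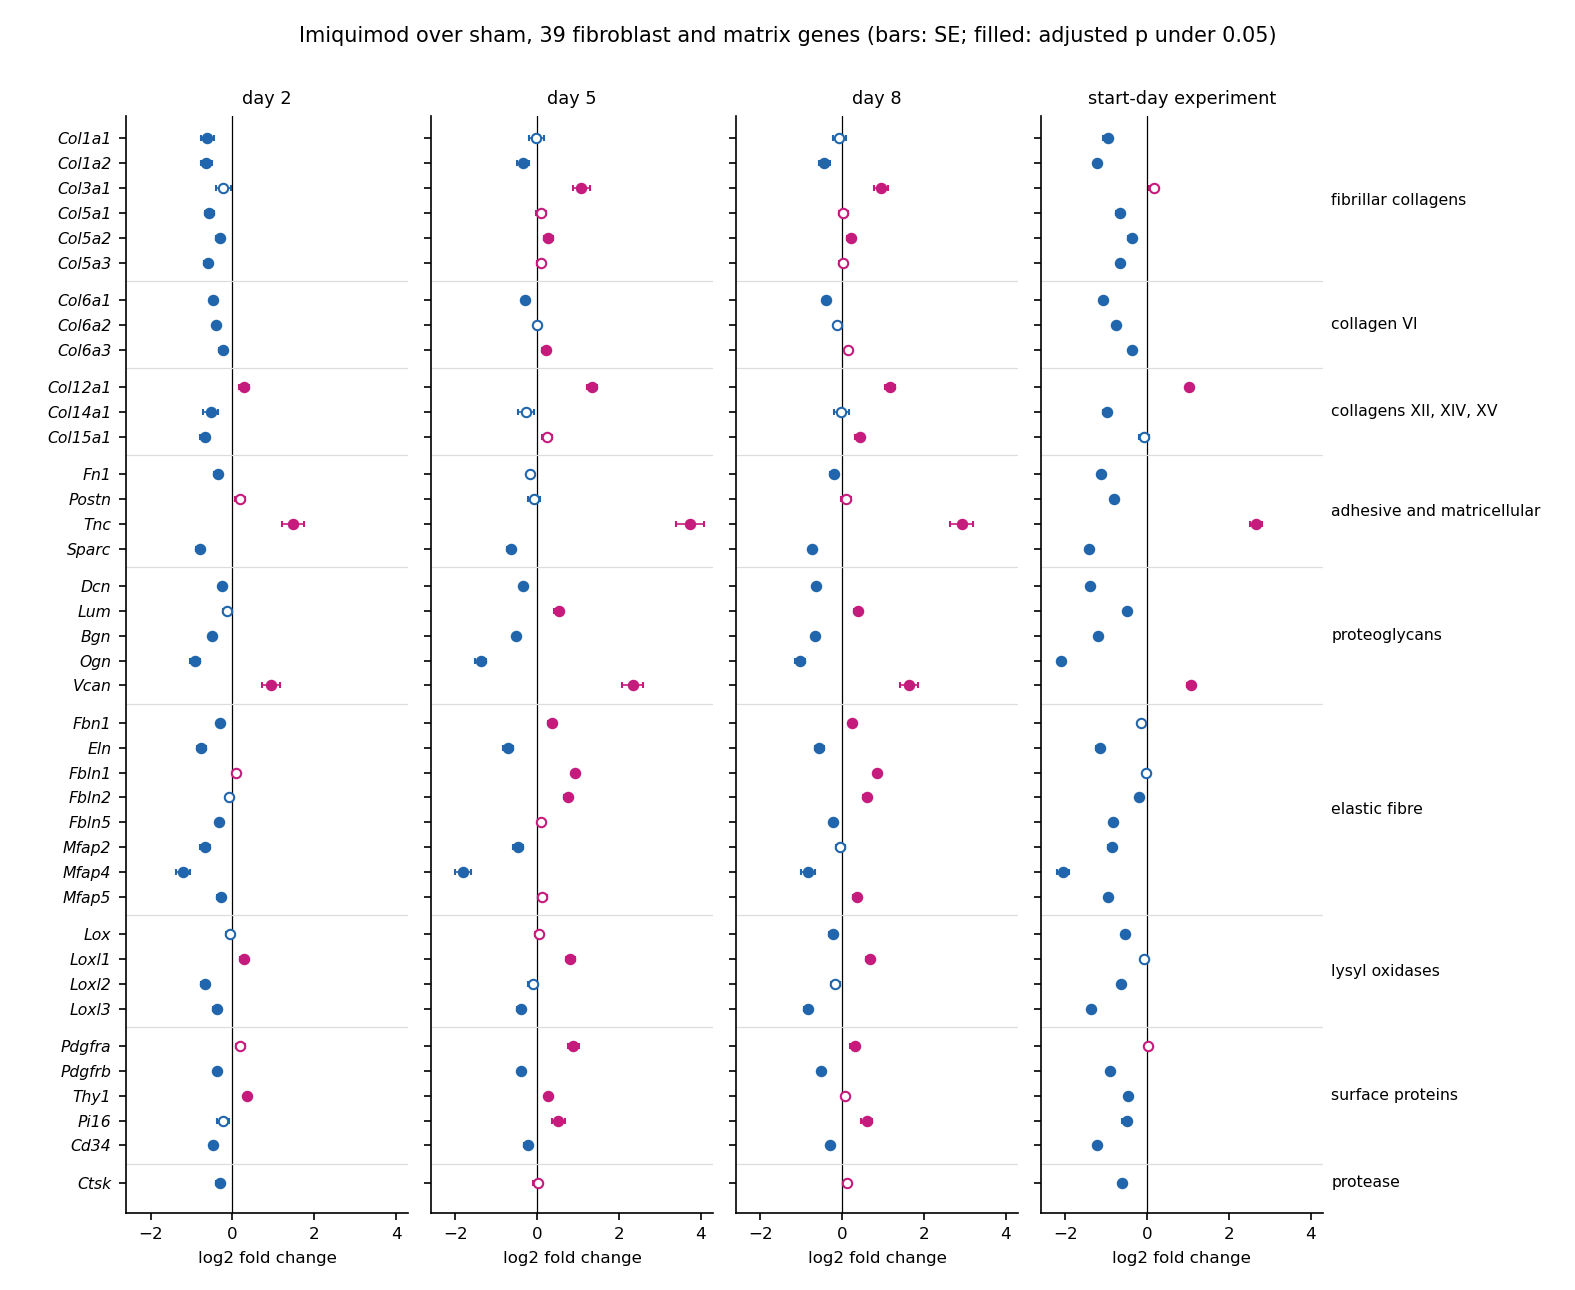
Log2 fold change of imiquimod over sham for each of the 39 genes (x axis; bars are SE) in the 3 days of the time course and the start-day experiment, with genes in rows by class; filled points had an adjusted p under 0.05. Tnc, Vcan and Col12a1 stand to the right in all 4 panels, at 3.73, 2.33 and 1.34 on day 5, and Ogn and Mfap4 stand to the left in all 4.

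Tenascin-C had the largest change of the set. On day 2, Tnc stood at 161, 229 and 472 CPM in imiquimod ears, against 65.7, 96.0 and 176 CPM in sham ears, with overlap of the groups. On day 5 it stood at 776, 1156 and 1422 CPM in imiquimod ears, against 87.8, 79.1, 82.9 and 94.6 CPM in sham ears. On day 8 the values were 495, 639 and 899 CPM in imiquimod ears, against 79.7, 87.9 and 93.4 CPM in sham ears. From day 5 every imiquimod ear lay above every sham ear, and the log2 fold changes were 1.48 ± 0.27 on day 2 (adjusted p = 8.71e-06), 3.73 ± 0.35 on day 5 (6.40e-13) and 2.92 ± 0.28 on day 8 (2.13e-12). Start-day imiquimod ears held 838, 946 and 1195 CPM, against 124, 162 and 183 CPM in sham ears, again without overlap (2.66 ± 0.14).

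With the CCR6 inhibitor Tnc was lower in every comparison, and 5 of the 6 were called. On day 5, ears given the inhibitor held 142, 289.9 and 626 CPM, against 776, 1156 and 1422 CPM with imiquimod alone. All 6 lay below the lowest imiquimod ear, at a log2 fold change of -1.76 ± 0.27 (adjusted p = 2.59e-06). On day 8 the groups overlapped, with 315, 455 and 710.4 CPM with the inhibitor and 495, 639 and 899 CPM without, and the difference did not pass (-0.45 ± 0.26, adjusted p = 0.455). Begun later, or again from day 0, the inhibitor gave 399, 454 and 519 CPM from day 0, 317, 449.6 and 501 CPM from day 3 and 402, 536 and 681 CPM from day 5, against 838, 946 and 1195 CPM with imiquimod alone. All 18 ears given the inhibitor lay below all 6 without it, at -1.10 ± 0.13, -1.18 ± 0.13 and -0.88 ± 0.13. Against sham, ears with the inhibitor kept a higher Tnc, by 2.47 ± 0.28 on day 8 and by 1.55 ± 0.13 when it was given from day 0. The day 2 difference (-1.22 ± 0.27, adjusted p = 0.00219) was not called without imiquimod libraries 9 and 11, the highest in Tnc of their group.

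The other 3 glycoproteins of this class went another way. Sparc was lower in imiquimod ears in all 4 comparisons, at -0.79 ± 0.09, -0.65 ± 0.10, -0.73 ± 0.09 and -1.43 ± 0.06, without overlap of the groups in any. Fibronectin, Fn1, was lower on day 2 (-0.36 ± 0.08), on day 8 (-0.21 ± 0.08) and in the start-day experiment (-1.13 ± 0.07). Its day 8 call was lost without any one of 3 libraries (adjusted p up to 0.0777 without sham library 41 or 42 or imiquimod library 46). Periostin, Postn, which binds collagen I and Tnc, was called only in the start-day experiment, with 463, 547 and 655 CPM in imiquimod ears, against 815, 962 and 1047 CPM in sham ears (-0.80 ± 0.08). Under the inhibitor the start-day ears held more Postn, 646, 724 and 802 CPM from day 0, 638, 762 and 833 CPM from day 3 and 699, 788 and 844 CPM from day 5, against 463, 547 and 655 CPM with imiquimod alone. These ears overlapped with imiquimod ears for starts on days 0 and 3 and not for day 5, and the changes were 0.41 ± 0.08, 0.46 ± 0.08 and 0.52 ± 0.08. Fn1 was higher in the same 3 comparisons by 0.30, 0.19 and 0.24, the call for day 3 being lost without imiquimod library 8 or inhibitor library 19, 21 or 22 (adjusted p up to 0.0980).

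**Figure D3:**
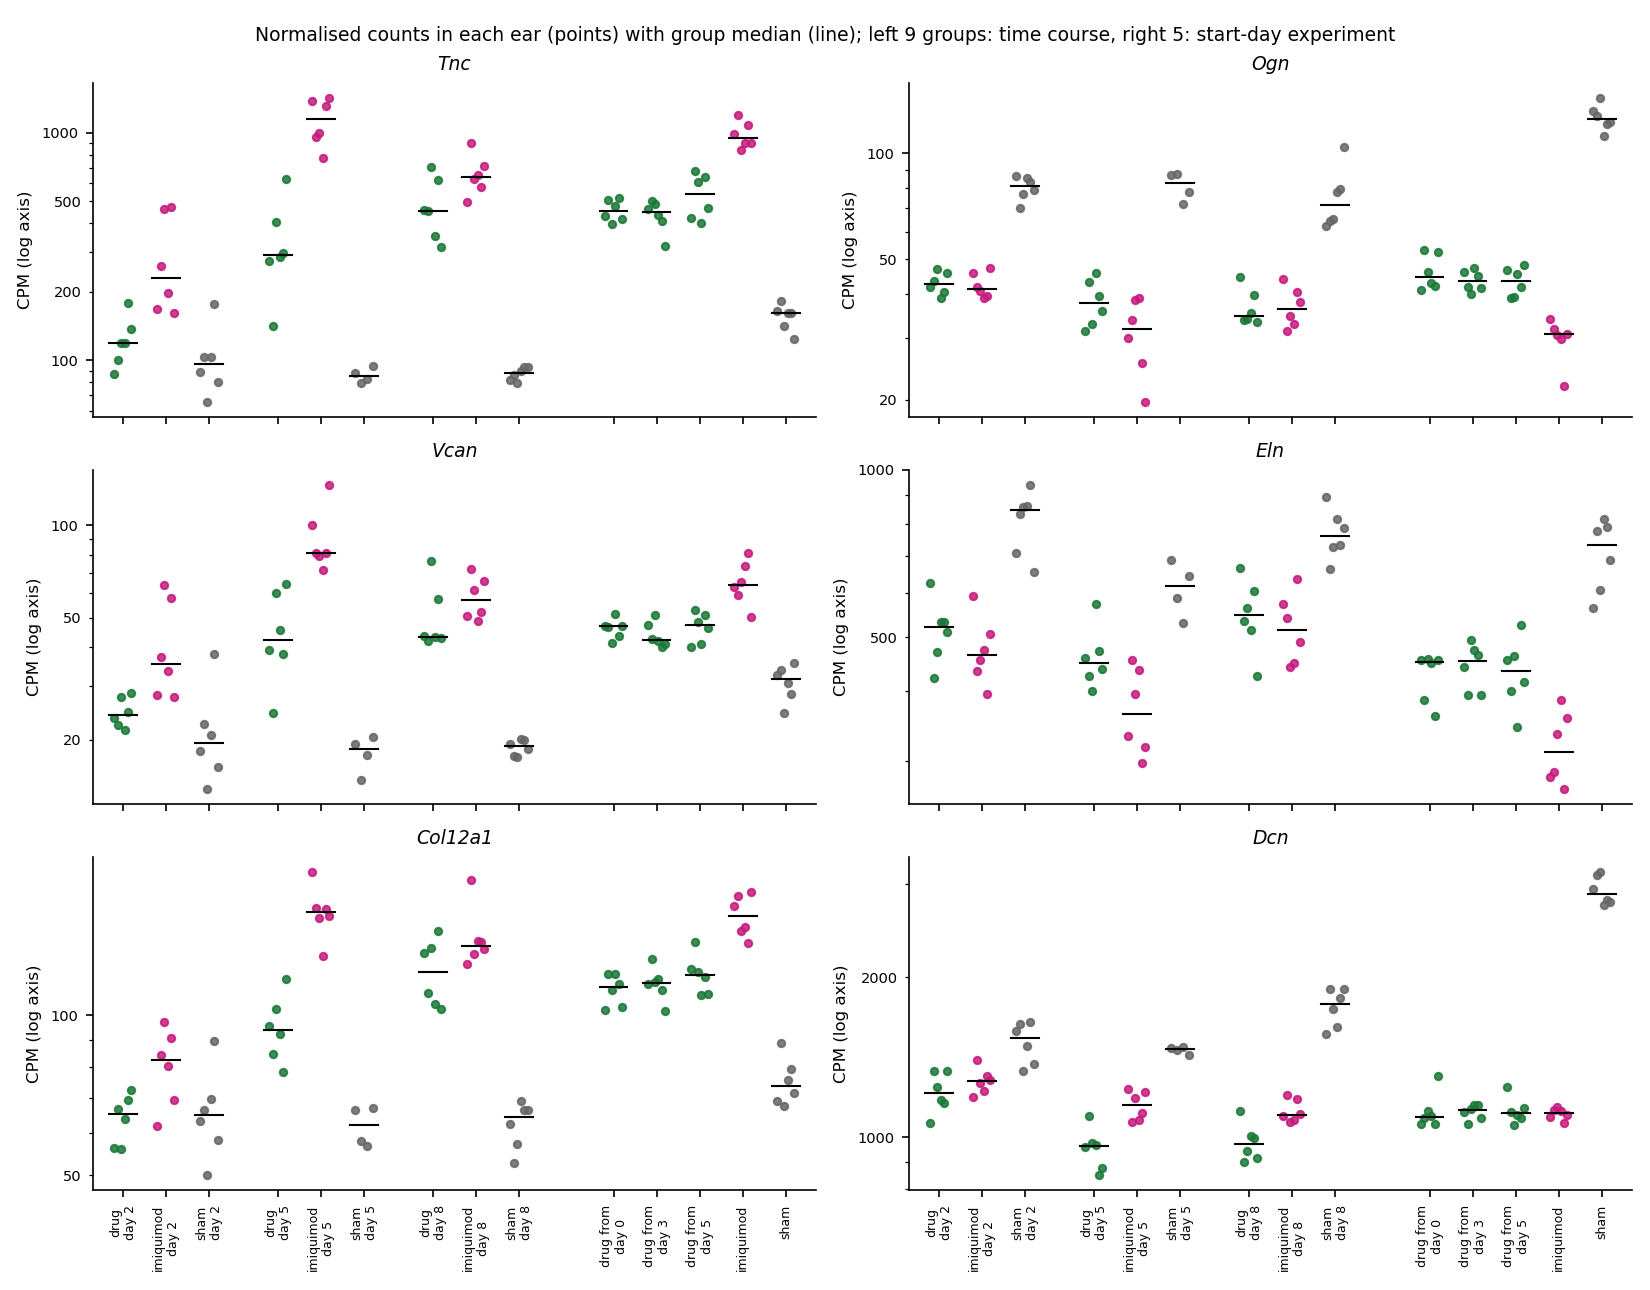
CPM on a log axis in each ear (points) with the group median (line) for Tnc, Vcan and Col12a1 in the left column and Ogn, Eln and Dcn in the right. In the left column imiquimod ears stand above sham ears from day 5, with the medians of ears given the inhibitor between them, and in the right column imiquimod ears stand below sham ears from day 5, as for Ogn with 21.8 to 33.9 CPM in imiquimod and 112 to 144 CPM in sham ears of the start-day experiment.

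Among the proteoglycans, versican alone rose throughout. Vcan, a large hyaluronan-binding proteoglycan, held 71.4, 81.3 and 135 CPM in imiquimod ears of day 5, against 19.4, 14.8, 17.9 and 20.5 CPM in sham ears. On day 8 it held 48.9, 57.0 and 71.9 CPM in imiquimod ears, against 17.5, 19.03 and 20.1 CPM in sham ears. Neither day showed overlap, and the log2 fold changes were 0.94 ± 0.22 on day 2, 2.33 ± 0.25 on day 5, 1.63 ± 0.22 on day 8 and 1.08 ± 0.10 in the start-day experiment. The inhibitor brought Vcan to 24.4, 42.4 and 64.1 CPM on day 5, below every ear given imiquimod alone (-1.01 ± 0.21, adjusted p = 1.45e-04), and the start-day changes, with overlapping ears, were -0.50 ± 0.10, -0.57 ± 0.10 and -0.48 ± 0.10. Its day 2 difference (-0.75 ± 0.21) was not called without imiquimod library 9 or 11 (adjusted p up to 0.0901), and that of day 8 did not pass (-0.20 ± 0.21, adjusted p = 0.723).

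The small leucine-rich proteoglycans split. Osteoglycin, Ogn, held 19.7, 31.7 and 38.9 CPM in imiquimod ears of day 5, against 86.8, 87.2, 71.9 and 77.6 CPM in sham ears. Start-day ears held 21.8, 30.6 and 33.9 CPM in imiquimod ears, against 112, 125 and 144 CPM in sham ears. No imiquimod ear reached the lowest sham ear in any of the 4 comparisons, and the changes were -0.92 ± 0.12, -1.38 ± 0.13, -1.04 ± 0.12 and -2.09 ± 0.08. Biglycan (Bgn) was likewise lower in all 4 without overlap, at -0.50, -0.51, -0.65 and -1.19, and decorin (Dcn), which overlapped on day 2, at -0.24, -0.35, -0.65 and -1.40. Lumican, Lum, which like Dcn binds collagen fibrils, went the other way on days 5 and 8: it held 226, 233 and 269 CPM in imiquimod ears of day 8, against 159, 186 and 216 CPM in sham ears. The groups did not overlap on either day (0.53 ± 0.11 and 0.39 ± 0.10), and in the start-day experiment Lum was lower (-0.48 ± 0.05).

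Ogn was the member most raised by the inhibitor in the start-day experiment. Ears given it from day 0 held 40.9, 44.5 and 53.04 CPM, those from day 3 40.005, 43.3 and 47.4 CPM and those from day 5 38.9, 43.5 and 48.1 CPM, against 21.8, 30.6 and 33.9 CPM with imiquimod alone. None of the 18 overlapped with the 6 imiquimod ears, and the changes were 0.64 ± 0.08, 0.55 ± 0.08 and 0.54 ± 0.08, and Ogn stayed below sham for the start on day 0 at -1.46. In the time course Ogn was higher with the inhibitor on day 5 (0.30 ± 0.12, adjusted p = 0.0475), a call lost without any one of 6 libraries (imiquimod 25, 29 and 30, inhibitor 32, 34 and 35), and not on day 8 (-0.00 ± 0.12). The effect of the inhibitor on Ogn differed between day 8 of the time course and the start on day 0 by -0.65 ± 0.15 (adjusted p = 0.0260), and Ogn was the only member of which this was so, with 0.493% of all genes called lower and 0.334% higher in that difference. It was called no longer without imiquimod library 44 or 48 or inhibitor library 53 of day 8, or without start-day imiquimod library 11 or inhibitor library 30, when the count of members was 0, while the count was 2 without inhibitor library 51 of day 8 or start-day imiquimod library 12. Lum was the only member called on day 8: 158, 181 and 210.0 CPM with the inhibitor, against 226, 233 and 269 CPM with imiquimod alone, without overlap (-0.40 ± 0.10, adjusted p = 0.0267). That call did not pass without any one of 5 libraries (imiquimod 45 and 48, inhibitor 52, 54 and 56), at up to 0.0825, and the count of members called on day 8 was 2 or 3 without imiquimod library 44 or inhibitor library 51, 53 or 55.

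The fibrillar collagens did not move together. Col3a1, the only chain of collagen III, held 2991, 3532 and 3736 CPM in imiquimod ears of day 5, against 2080.1, 1633, 1300.3 and 1557 CPM in sham ears. On day 8 it held 3052, 3226 and 3927 CPM in imiquimod ears, against 1317, 1717 and 2290.1 CPM in sham ears. Both days were free of overlap, with changes of 1.07 ± 0.20 (adjusted p = 9.04e-06) and 0.95 ± 0.18 (7.73e-06), whereas neither day 2 (-0.22 ± 0.18) nor the start-day experiment (0.16 ± 0.12) gave a call. Col1a1, the main chain of collagen I, held 1714, 1798 and 2214 CPM in imiquimod ears of day 8, against 1522, 2043 and 2595 CPM in sham ears, overlapping (-0.07 ± 0.16, adjusted p = 0.701). It held, in the start-day experiment, 1259, 1659 and 1891 CPM in imiquimod ears, against 2289.7, 3171 and 3816 CPM in sham ears, without overlap (-0.97 ± 0.11). The partner chain Col1a2 was lower in all 4 comparisons (-0.64, -0.35, -0.43 and -1.23), the day 5 call being lost without any one of 4 libraries (sham 19 and 20, imiquimod 29 and 30, adjusted p up to 0.126). Of the collagen V chains, Col5a1 and Col5a3 were lower on day 2 and in the start-day experiment and not called on days 5 and 8, and Col5a2 was lower on day 2 (-0.31), higher on days 5 and 8 (0.27 and 0.22) and lower in the start-day experiment (-0.38), its 3 time-course calls each being lost without 1 or more single libraries.

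Within an ear, Col3a1 gained on Col1a1. Log2 CPM of Col3a1 minus Col1a1 ran over 0.09 to 0.54 in imiquimod and -0.21 to 0.06 in sham ears on day 2. On day 5 it ran over 0.87 to 1.07 in imiquimod and -0.19 to -0.11 in sham ears, and on day 8 over 0.72 to 0.92 in imiquimod and -0.37 to -0.13 in sham ears. The start-day difference ran over 0.99 to 1.19 in imiquimod and -0.18 to 0.03 in sham ears. No group of imiquimod ears overlapped with its sham ears in this difference, in which the scaling between libraries cancels. Ears given the inhibitor had means of 0.12 ± 0.06 on day 2, 0.57 ± 0.14 on day 5 and 0.73 ± 0.10 on day 8 (± SD, n = 6 each), against 0.31 ± 0.17, 0.95 ± 0.07 and 0.82 ± 0.08 with imiquimod alone. With starts on days 0, 3 and 5 they were 0.91 ± 0.05, 0.85 ± 0.05 and 0.92 ± 0.05, against 1.08 ± 0.08. The inhibitor and imiquimod groups did not overlap on day 5 or with starts on days 0 and 3, and overlapped otherwise. This difference was chosen after its values were seen and is given with no test.

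**Figure D4:**
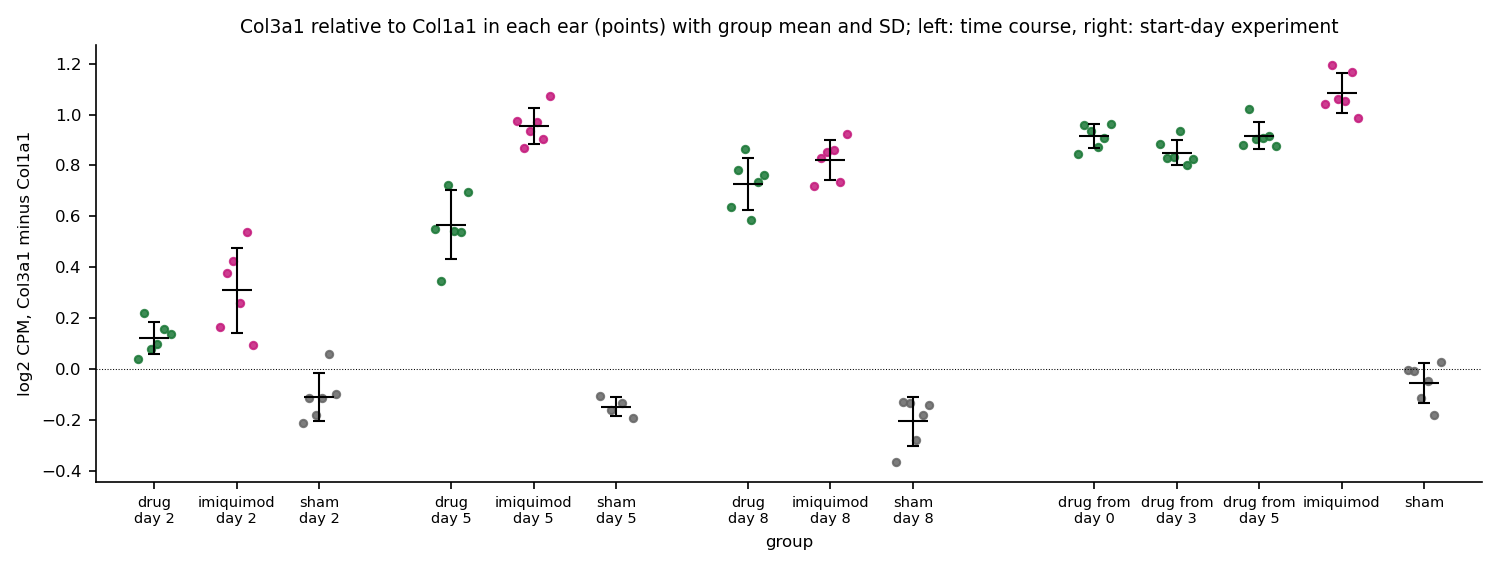
Log2 CPM of Col3a1 minus that of Col1a1 in each ear (points), with group mean and SD (bars). On day 8 imiquimod ears stand at 0.72 to 0.92 and sham ears at -0.37 to -0.13.

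The network and fibre-surface collagens differed by chain. Col6a1 was lower in all 4 imiquimod comparisons (-0.48, -0.29, -0.41 and -1.09) without overlap, Col6a2 on day 2 and in the start-day experiment (-0.41 and -0.76), and Col6a3 on the same 2 occasions (-0.24 and -0.37). On day 5 Col6a3 was called higher (0.21, adjusted p = 0.0447), a call lost without any one of 6 libraries (sham 20 and 21, imiquimod 25, 26, 29 and 30), and its day 2 call was lost without sham library 5 (adjusted p = 0.126). Col12a1, which lies on collagen I fibrils, held 129, 156 and 186 CPM in imiquimod ears of day 5, against 66.4, 57.9, 56.9 and 67.0 CPM in sham ears. Its start-day values were 137, 154 and 170.5 CPM in imiquimod ears, against 67.5, 73.5 and 88.8 CPM in sham ears. Neither pair overlapped, nor did that of day 8, with changes of 1.34 ± 0.13, 1.17 ± 0.11 and 1.03 ± 0.07, while the smaller change of day 2 (0.29 ± 0.11) was lost without any one of sham libraries 3 and 6 and imiquimod libraries 9 and 11 (adjusted p up to 0.101). Col14a1, of the same family, was lower on day 2 (-0.53, lost without sham library 5, adjusted p = 0.0607) and in the start-day experiment (-0.99), and Col15a1, found next to basement membranes, was lower on day 2 (-0.68) and higher on day 8 (0.43).

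Col12a1 fell with the inhibitor to 78.3, 93.9 and 117 CPM on day 5, against 129, 156 and 186 CPM with imiquimod alone, without overlap (-0.72 ± 0.11, adjusted p = 2.64e-06). The start-day ears held 102, 113 and 119 CPM from day 0, 102, 115 and 127 CPM from day 3 and 109, 119 and 137 CPM from day 5, against 137, 154 and 170.5 CPM. Changes were -0.46 ± 0.07, -0.43 ± 0.07 and -0.37 ± 0.07, and the groups overlapped for the start on day 5 and for neither of the others. All 6 fibrillar chains were also lower with the inhibitor on day 5, at -0.40 (Col5a3) to -0.86 (Col3a1) on the log2 scale. Col3a1 then held 1287, 1817 and 2628 CPM with the inhibitor, against 2991, 3532 and 3736 CPM with imiquimod alone, without overlap. Only Col5a3 of these 6 was called in the start-day experiment, for the start on day 0 (-0.23 ± 0.08), a call lost without imiquimod library 10 or 11 or inhibitor library 26 (adjusted p up to 0.0515).

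Elastic fibre genes followed different courses. Elastin itself, Eln, held 297, 364 and 456 CPM in imiquimod ears of day 5, against 690.0, 589, 531 and 646 CPM in sham ears. Start-day imiquimod ears held 267, 311 and 387 CPM, against 566, 733 and 817 CPM in sham ears. It was lower in all 4 comparisons without overlap, at -0.76 ± 0.11, -0.72 ± 0.12, -0.56 ± 0.11 and -1.15 ± 0.11. Mfap4, a microfibril-associated glycoprotein, was lower at -1.21 ± 0.17, -1.81 ± 0.19, -0.84 ± 0.17 and -2.06 ± 0.15, also without overlap, and its change was smaller in size on day 8 than on day 5 (0.97 ± 0.26, adjusted p = 0.0238). Fibulins 1 and 2, which bind fibronectin, laminin and elastic fibres, went up: Fbln1 held 78.4, 81.5 and 93.0 CPM in imiquimod ears of day 5, against 47.9, 38.4, 48.2 and 42.2 CPM in sham ears. The Fbln1 changes were 0.93 ± 0.09 on day 5 and 0.86 ± 0.08 on day 8, and those of Fbln2 0.75 ± 0.10 and 0.60 ± 0.09, all without overlap, while in the start-day experiment Fbln1 was not called (-0.03 ± 0.05) and Fbln2 was lower (-0.20 ± 0.07). Fibrillin-1 (Fbn1), the microfibril backbone, and Mfap5 were lower on day 2 (-0.30 and -0.29, that of Mfap5 lost without sham libraries 2 and 5) and higher on day 8 (0.25 and 0.37). Fbn1 was called higher on day 5 too, with 245 to 273 CPM in imiquimod and 195.7 to 218.6 CPM in sham ears, and Mfap5 was not called then. Fbln5, needed for elastic fibre assembly, and Mfap2 were lower on day 2 (-0.33 and -0.67) and in the start-day experiment (-0.83 and -0.86), Mfap2 also on day 5 (-0.47) and Fbln5 also on day 8 (-0.24).

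The inhibitor moved these genes in opposite directions. Eln rose to 361, 452 and 456 CPM with a start on day 0, 394, 453 and 494 CPM on day 3 and 345, 436 and 527 CPM on day 5, against 267, 311 and 387 CPM with imiquimod alone. The groups overlapped for the starts on days 0 and 5 and not for day 3, at 0.42 ± 0.11, 0.48 ± 0.11 and 0.45 ± 0.11. Eln was also called higher on day 5 of the time course (0.31 ± 0.11, adjusted p = 0.0279), and lost that call without any one of imiquimod libraries 25, 29 and 30 and inhibitor library 34 (up to 0.106). Fbn1 went the other way, with 144, 178 and 203 CPM with the inhibitor on day 5, against 245, 261 and 273 CPM with imiquimod alone, without overlap (-0.59 ± 0.08). It was lower in all 3 start-day comparisons too (-0.21, -0.30 and -0.19), although the calls for days 0 and 5 were each lost without several single libraries, at adjusted p up to 0.0663 and 0.139. Fbln1 and Fbln2 were lower on day 5 at -0.43 and -0.57, and with the start on day 0 at -0.21 and -0.28.

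Of the cross-linking enzymes, Loxl1, which acts on elastin, was higher in imiquimod ears on days 2, 5 and 8 (0.29 ± 0.10, 0.81 ± 0.11 and 0.68 ± 0.10), without overlap on days 5 and 8 and with the day 2 call lost without imiquimod libraries 9 and 11, and not called in the start-day experiment (-0.07 ± 0.09). Loxl3 was lower in all 4 comparisons without overlap (-0.38, -0.41, -0.84 and -1.36), and Loxl2 on day 2 and in the start-day experiment (-0.66 and -0.63). Lox, the enzyme the family is named for, was lower on day 8 (-0.23) and in the start-day experiment (-0.55), and its day 8 call was lost without imiquimod library 46, 47 or 49 (adjusted p up to 0.0987). On day 5 the inhibitor lowered Lox, Loxl1 and Loxl2 (-0.36, -0.57 and -0.43), each without overlap, and not Loxl3 (-0.02 ± 0.08).

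Surface proteins of fibroblasts and pericytes separated as well. Pdgfra, the growth factor receptor that marks dermal fibroblasts, held 79.2, 105 and 120.4 CPM in imiquimod ears of day 5, against 61.8, 55.3, 52.2 and 55.5 CPM in sham ears. It was higher on days 5 and 8 without overlap (0.88 ± 0.13 and 0.30 ± 0.12, the day 8 call being lost with upper-quartile factors and without a filter) and neither on day 2 (0.20 ± 0.12) nor in the start-day experiment (0.02 ± 0.06). Pdgfrb, which pericytes carry as well, was lower in all 4 comparisons without overlap (-0.37, -0.39, -0.53 and -0.91). The 6 pericyte and smooth muscle markers summed to 232 to 281 CPM in imiquimod and 340.4 to 400.4 CPM in sham ears of day 5, and their part in the Pdgfrb result was not tested. Pi16, a marker of adventitial fibroblasts, was higher on days 5 and 8 (0.51 ± 0.16 and 0.59 ± 0.14) and lower in the start-day experiment (-0.50 ± 0.10). Cd34, which endothelial and progenitor cells also carry, was lower in all 4 (-0.48, -0.23, -0.30 and -1.22), the day 5 call being lost without sham library 19 (adjusted p = 0.139). Thy1, shared with T cells and nerve, was higher on days 2 and 5 (0.37 ± 0.06 and 0.27 ± 0.07) and lower in the start-day experiment (-0.47 ± 0.05). The 7 T cell markers summed to 15.4 to 32.1 CPM in imiquimod and 51.9 to 60.4 CPM in sham ears of day 5. In the start-day experiment they summed to 17.6 to 24.3 CPM in imiquimod and 46.2 to 62.5 CPM in sham ears. The 7 Schwann cell markers summed to 310.4 to 370.0 CPM in imiquimod and 802 to 1055 CPM in sham ears of day 5. The part of these cells in the Thy1 results was not tested.

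Pdgfra was lowered by the inhibitor at each start day. It held 60.3, 62.5 and 68.3 CPM from day 0, 51.6, 63.3 and 70.3 CPM from day 3 and 59.5, 70.7 and 74.1 CPM from day 5, against 76.2, 91.6 and 101 CPM with imiquimod alone. None of the 18 ears overlapped with the 6 (-0.50 ± 0.06, -0.52 ± 0.06 and -0.38 ± 0.06). The sham ears of that experiment held 82.3 to 94.0 CPM, so all 18 ears given the inhibitor lay below sham as well. In the time course Pdgfra held 43.3, 54.6 and 75.0 CPM with the inhibitor on day 5, against 79.2, 105 and 120.4 CPM with imiquimod alone, again without overlap (-0.89 ± 0.12). Ctsk, a collagen-degrading protease of fibroblasts and osteoclasts, was lower in imiquimod ears on day 2 (-0.31 ± 0.10, lost without sham libraries 2 and 5) and in the start-day experiment (-0.61 ± 0.06). Among ears given the inhibitor it held 60.5, 64.2 and 71.7 CPM from day 0, 64.4, 74.0 and 79.1 CPM from day 3 and 75.4, 86.7 and 92.0 CPM from day 5, against 69.4, 77.3 and 92.0 CPM with imiquimod alone. The later the start, the higher the median (start, time on the inhibitor and, if the time field gives it, day of sampling cannot be told apart), and Ctsk was the only gene of all 18434 called in the F test among the 3 start days (0.00542% of genes; adjusted p = 0.0306), with 1669 genes at an unadjusted p under 0.05. That call ended without any one of 7 libraries of the 18 (25, 26, 28 and 29 of the start on day 0 and 14, 15 and 17 of day 5).

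Counted over the set, the inhibitor lowered most of the 39 genes on day 5 and shifted them both ways in the start-day experiment. On day 5, 27 were lower and 3 higher than with imiquimod alone, where 17.2% and 18.3% of all genes were called, with a median of -0.35 over the members and 0.02 over all genes. Of the 27, imiquimod against sham on day 5 had 13 called higher, 10 not called and 4 called lower (Col1a2, Dcn, Pdgfrb and Cd34). By ear, the median over the 39 genes minus the sham mean ran over -0.41 to -0.09 with the inhibitor. It ran over -0.02 to 0.10 with imiquimod alone and -0.09 to 0.14 in sham ears. Beside the members described above, Col6a2 (-0.19), Col6a3 (-0.39), Col15a1 (-0.30), Dcn (-0.27), Lum (-0.47), Fbln5 (-0.25), Mfap5 (-0.27), Pdgfrb (-0.15), Pi16 (-0.35), Cd34 (-0.21) and Ctsk (-0.35) were lower and Postn higher (0.33). Of these, the calls of Col6a2, Col15a1, Postn, Mfap5, Pdgfrb, Pi16 and Cd34 were each lost without 3 to 9 single libraries of the 12, at adjusted p up to 0.109. Marker sums of other tissues moved in the same ears. The 7 sebaceous markers summed to 3374 to 6344 CPM with the inhibitor and 2082 to 3140.0 CPM with imiquimod alone, the 7 cartilage markers to 410.1 to 642 CPM with the inhibitor and 327 to 406 CPM with imiquimod alone and the 7 Schwann cell markers to 413 to 565 CPM with the inhibitor and 310.4 to 370.0 CPM with imiquimod alone. The 7 adipocyte markers summed to 248 to 412 CPM with the inhibitor and 198 to 238 CPM with imiquimod alone, and the 7 neutrophil markers to 337 to 4534 CPM with the inhibitor and 4989.9 to 7398 CPM with imiquimod alone. These 5 sums did not overlap between the groups, whereas those of skeletal muscle, keratinocyte, macrophage, T cell, endothelial and pericyte markers did. The part of these tissues in the day 5 result was not tested. On day 2 the 6 members called were all lower (all genes: 9.61% lower and 6.9% higher), namely Tnc, Vcan, Pdgfra, Col12a1, Fbln1 and Thy1, and none of them was called without imiquimod libraries 9 and 11 or with the 2 compared groups fitted alone. On day 8 the 1 member called, Lum, was lower (all genes: 0.335% lower and 1.22% higher), with a median of -0.19, which was -0.12 without inhibitor library 56. For the start on day 0, 12 were lower and 6 higher (16.9% and 18.2%), for day 3 9 and 7 (16.4% and 18%), and for day 5 5 and 7 (12.7% and 15%), with medians of -0.07, -0.04 and 0.03. With 1 library left out in turn these medians ran from -0.11 to -0.027 for day 0 (without imiquimod library 11 and 12), -0.067 to -0.010 for day 3 (without inhibitor library 22 and 24) and 0.011 to 0.058 for day 5 (without imiquimod library 11 and inhibitor library 16). The start-day counts were therefore near the shares of all genes, except for the lower calls of day 0, which stood somewhat above. The 3 start-day comparisons share their imiquimod ears.

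Other tissues moved in the start-day ears too. The sebaceous markers summed to 2408 to 3683, 2429 to 3376 and 1665 to 3585 CPM with starts on days 0, 3 and 5, against 1305 to 1588 CPM with imiquimod alone. The cartilage markers summed to 293 to 361, 307 to 372 and 318 to 346 CPM with starts on days 0, 3 and 5, against 231 to 268 CPM with imiquimod alone. Neutrophil markers, 6 of 7 being measured, summed to 2058 to 4720.2, 3534 to 5046 and 1892 to 6043 CPM with starts on days 0, 3 and 5, against 7135 to 9565 CPM with imiquimod alone. Suprabasal keratinocyte markers, 8 in all, summed to 46427 to 63171, 49841 to 66781 and 50789 to 68139 CPM with starts on days 0, 3 and 5, against 29017 to 45372 CPM with imiquimod alone. In these 4 sums no group given the inhibitor overlapped with imiquimod alone. The Schwann cell markers summed to 289 to 371, 299 to 318 and 265 to 324 CPM with starts on days 0, 3 and 5, against 241 to 275 CPM with imiquimod alone, overlapping for the start on day 5 and not for the others. The skeletal muscle markers summed to 2024 to 2489.8, 1607 to 2116 and 1589.8 to 2079.8 CPM with starts on days 0, 3 and 5, against 1339.9 to 1733 CPM with imiquimod alone, with no overlap for the start on day 0. Adipocyte markers separated from imiquimod alone for the starts on days 0 and 3 and macrophage markers for day 0. The part of these tissues in the start-day results was not tested.

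In the start-day experiment, calls not described elsewhere were Col15a1 (-0.31), Lum (-0.16), Pdgfrb (-0.19) and Ctsk (-0.27) lower and Loxl3 (0.17) and Thy1 (0.20) higher for the start on day 0. For day 3 they were Loxl2 (-0.20), Fbln1 (-0.14), Fbln2 (-0.21) and Pdgfrb (-0.15) lower and Bgn (0.17), Fbln5 (0.16) and Mfap4 (0.40) higher, and for day 5 Col14a1 (0.26), Bgn (0.16) and Mfap4 (0.46) higher. Single libraries decided those of Col15a1, Lum and Loxl3 for day 0, Loxl2, Fbln1, Fbln2 and Mfap4 for day 3 and Col14a1 and Mfap4 for day 5 (adjusted p up to 0.128 without one of them).

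**Figure D5:**
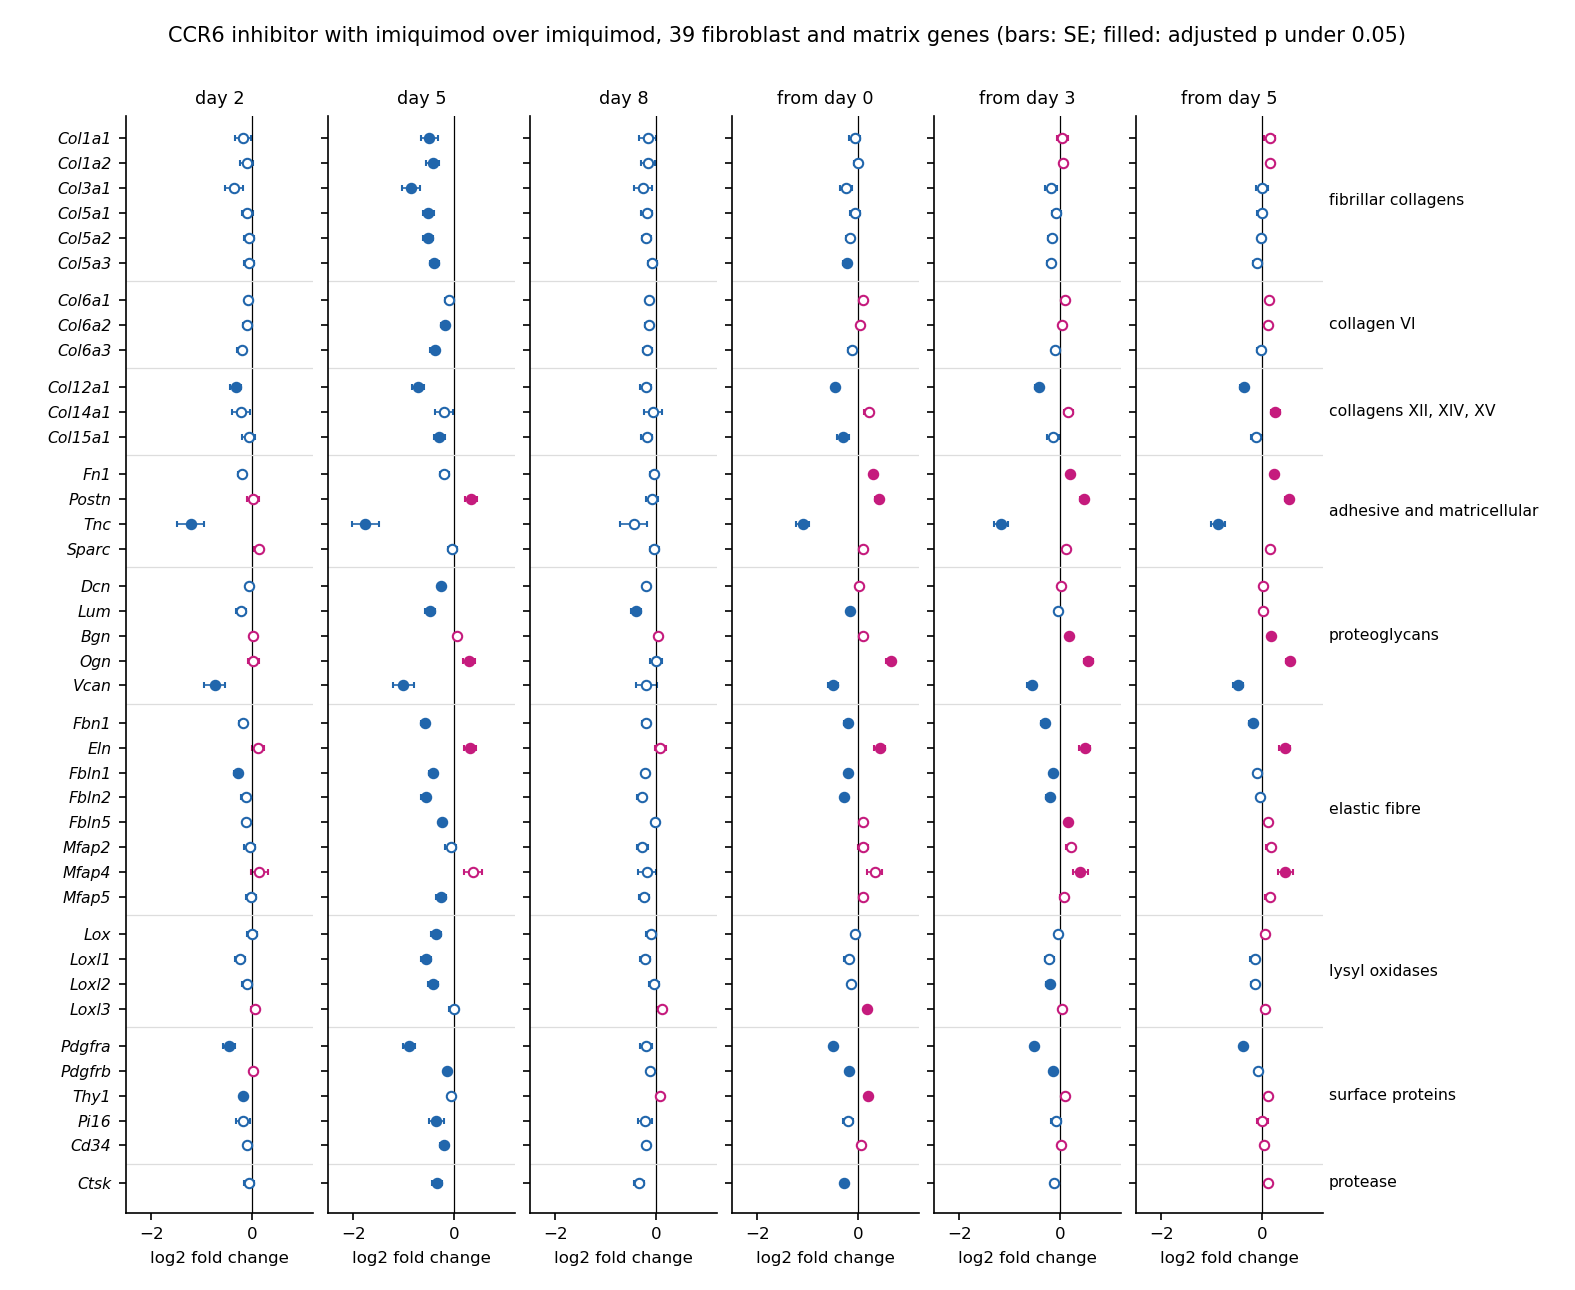
Log2 fold change of the inhibitor with imiquimod over imiquimod alone for each of the 39 genes (x axis; bars are SE), by day in the time course and by start day in the second experiment; filled points had an adjusted p under 0.05. On day 5 nearly all filled points lie to the left of 0 (27 of 39 genes lower), and in the start-day panels Tnc lies farthest left and Ogn farthest right.

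Set against sham, ears given the inhibitor on day 8 had 17 members lower and 9 higher (32.6% and 34.2% of all genes), and those given it from day 0 had 35 lower and 3 higher (37.6% and 36.7%). The 3 higher in the second of these were Tnc, Vcan and Col12a1. Among sham ears, day 8 against day 2 gave 5 lower and 1 higher (3.37% and 3.12%), the higher one being Dcn (0.22 ± 0.06). The 6 calls were 1 without sham library 38 of day 8 and 3 without any one of sham libraries 2, 4 and 5 of day 2 and 37, 39 and 40 of day 8.

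The effect of imiquimod changed with time. It differed among days 2, 5 and 8 for 26 of the 39 genes by an F test on the contrasts of contrasts, against 33.4% of all genes. The effect was higher on day 5 than on day 2 for 20 members and lower for 1 (14.4% and 15.2% of all genes), the 1 being Ogn (-0.47 ± 0.17), with Tnc (2.25 ± 0.41), Vcan (1.39 ± 0.32), Col3a1 (1.29 ± 0.27) and Col12a1 (1.05 ± 0.17) at the top. Between days 5 and 8 it was higher for 1 (Mfap4) and lower for 3 (Dcn, Fbln5 and Loxl3), where 2.16% and 1.75% of all genes were called. The count of 4 was 1 without any one of sham libraries 19 and 22 and imiquimod library 25 of day 5 and sham library 42 and imiquimod libraries 46 and 47 of day 8, and 2 without sham library 20, 21 or 38 or imiquimod library 26, 29 or 30. The effect of the inhibitor differed among days for 3 members, Fbn1, Fbln2 and Pdgfra, a count near the share of all genes (7.99%). This count was 0 without inhibitor library 32, 9 without inhibitor library 56 and 7 without inhibitor library 36. It was 5 without any one of imiquimod libraries 10, 28 and 45 and inhibitor library 51.

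The largest difference lay between the 2 experiments. In a joint fit, the effect of imiquimod was higher on day 8 of the time course than in the start-day experiment for 34 of the 39 genes, the other 5 not being called (all genes: 11.2% higher and 10.3% lower), with a median difference of 0.65. Mfap5 (1.27 ± 0.13), Mfap4 (1.18 ± 0.23), Pi16 (1.05 ± 0.18) and Ogn (1.01 ± 0.15) differed most. Those without a call were Tnc, Vcan, Col12a1, Pdgfra and Lox. Col5a2, Lum, Fbln2, Mfap5 and Pi16 were called higher with imiquimod on day 8 and lower in the start-day experiment. Each experiment has its own sham ears and its own table, so that the experiment and anything that came with it cannot be told apart.

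Companion genes of the same tissue were read from lists of related function. Among 22 genes of collagen processing, 12 were lower and 6 higher with imiquimod on day 8 (33.6% and 34.5% of all genes), with a median of -0.21, against -0.01 over all genes. The prolyl hydroxylase subunit P4hb rose (1.10 ± 0.06), while Pcolce2, an enhancer of procollagen cleavage (-1.66 ± 0.08), the procollagen protease Adamts14 (-2.31 ± 0.13) and the collagen prolyl hydroxylase P3h3 (-0.77 ± 0.07) fell. Of the 22, 18 were lower in the start-day experiment and 3 higher (39.9% and 38.1% of all genes; median -0.59). Of 22 genes of the TGF-beta pathway, 11 were lower and 5 higher on day 8 (33.6% and 34.5% of all genes; median -0.25). The latent TGF-beta binding proteins Ltbp4 (-1.74 ± 0.08) and Ltbp3 (-1.14 ± 0.06), the ligand Tgfb2 (-1.54 ± 0.10) and the co-receptor Tgfbr3 (-0.70 ± 0.05) fell, while the ligand Tgfb1 rose (0.80 ± 0.09). Both Ltbp genes were higher with the inhibitor on day 5 (0.55 and 0.32) and with starts on days 0 (0.65 and 0.34), 3 (0.56 and 0.29) and 5 (0.46 and 0.26).

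Of 22 further fibroblast genes, 14 were lower and 4 higher with imiquimod on day 8 (33.6% and 34.5% of all genes; median -0.40), with Gsn, an actin-severing protein (-2.01 ± 0.08), Mgp, an inhibitor of calcification (-1.07 ± 0.08), and Prrx1, a transcription factor of limb and skin mesenchyme (-0.65 ± 0.05), lower and the dipeptidyl peptidase Dpp4 higher (2.24 ± 0.14). Contractile and myofibroblast genes gave 5 higher of 8 on day 8 (34.5% of all genes; median 0.38), among them the smooth muscle actins Actg2 (2.04 ± 0.32) and Acta2 (0.56 ± 0.10), Cnn1 (1.81 ± 0.35) and Lrrc15 (0.95 ± 0.23), and 3 higher and 4 lower in the start-day experiment (38.1% and 39.9% of all genes). The 6 pericyte and smooth muscle markers, Acta2 among them, did not rise as a sum on day 8. They summed to 281 to 369 CPM in imiquimod and 367 to 417 CPM in sham ears.

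The 15 cytokine and stress genes that activated fibroblasts, and also other cells of inflamed skin, express gave 11 higher on day 8 (34.5% of all genes; median 2.06), led by the chemokine Ccl8 (3.79 ± 0.26), the acute-phase protein Saa3 (8.29 ± 0.93), the protease inhibitor Timp1 (2.80 ± 0.39) and the neutrophil chemokine Cxcl1 (4.05 ± 0.58). With the inhibitor 10 of the 15 were lower on day 5, 12 with the start on day 0 (median -0.79), 12 with that on day 3 and 8 with that on day 5, where 17.2%, 16.9%, 16.4% and 12.7% of all genes were lower. All 10 hyaluronan genes were higher with imiquimod on day 8 (34.5% of all genes; median 1.32), with Cd44, the hyaluronan receptor (2.16 ± 0.15), Hmmr, a second hyaluronan-binding protein (2.14 ± 0.17), Cemip, which takes part in hyaluronan breakdown (2.10 ± 0.20), and the synthase Has3 (6.22 ± 0.57) at the smallest adjusted p. The inhibitor lowered 7 of the 10 on day 5 and 6 with the start on day 0 (17.2% and 16.9% of all genes). The neutrophil markers were lower with the inhibitor in the same ears, without overlap, and their part in these changes was not tested. On day 8 the basal keratinocyte markers summed to 23701 to 28325 CPM in imiquimod and 12567 to 14621 CPM in sham ears. The suprabasal ones summed to 36588 to 46183 CPM in imiquimod and 16361 to 17940 CPM in sham ears. The part of keratinocytes in the results of these 2 lists was not tested either.

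Basement membrane genes were called in both directions. On day 8, 9 of 18 were lower and 7 higher with imiquimod (33.6% and 34.5% of all genes; median -0.18). Col17a1, a hemidesmosome collagen of keratinocytes (-1.22 ± 0.07), the laminin chain Lamb2 (-0.74 ± 0.05), the collagen IV chain Col4a6 (-3.35 ± 0.24) and the anchoring-fibril collagen Col7a1 (-1.49 ± 0.12) were lower, and the chains Col4a1 (0.96 ± 0.11) and Col18a1 (0.97 ± 0.09) higher. With the inhibitor on day 5, 6 were higher, Col4a6 (1.38 ± 0.23) among them, and 10 lower, Col4a1 (-0.77 ± 0.11) among them (18.3% and 17.2% of all genes).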

How the data were processed

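Poly(A) RNA of ear punches was sequenced, from 1 µg of total RNA extracted with TRI reagent, per the labels' protocols. The deposited tables hold the authors' estimated counts per gene, from salmon according to the tables' names and on GRCm39 per the submitters' processing notes. Its version, the annotation, the strand setting and any filter are not stated there, so reads of overlapping or antisense genes cannot be told apart. Columns were assigned through the sample titles.

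Counts were rounded. Each experiment was fitted with edgeR 4.0.16 (R 4.3.3, limma 3.58.1): filterByExpr, TMM factors, 1 coefficient per group, robust quasi-likelihood F test, Benjamini-Hochberg adjustment over the 18780 or 18434 genes tested. The comparison between experiments used a joint fit of 19455 genes. CPM are TMM-scaled, and log2 CPM per ear used a prior count of 2. The edgeR procedure was tested on data simulated for the inhibitor comparisons of day 8 and of the start on day 0. Changes as small as many of those called here were not simulated, so the simulation does not cover them. The precision of a level is set by depth and by 4 to 6 ears a group. No pair of libraries in a group agreed within sampling noise (lowest chi-square per gene 4.13).

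All 39 members could be named, and values by ear were given for the members of smallest adjusted p in each direction within a class and for those going against their class. Of each companion list, up to 4 called genes of smallest adjusted p on day 8 were named, and further ones were chosen after their values were seen. The members and lists were chosen with earlier results of these data known. Alternatives were DESeq2 1.42.0, limma voom with sample weights, other scaling factors and filters, the compared groups alone, and leaving out each library.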

Additional observations from a re-analysis of the deposited data

Results flagged for a closer look

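Differences between effects were each tested as a contrast of contrasts, of start days, or by an F test over several of either. The imiquimod effect differed for 26 members among the 3 days (33.4% of all genes) and 21 between days 5 and 2 (14.4% higher and 15.2% lower). It differed for 4 members between days 8 and 5 (2.16% and 1.75%) and 34 between the 2 experiments (11.2% and 10.3%). The inhibitor effect differed for 3 members among days, near the share of all genes (7.99%), and 1 among its start days (0.00542%). Between day 8 of the time course and the start on day 0 it differed for 1 member (0.334% of all genes higher and 0.493% lower).

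Single ears stood far from the other ears of their group, by the gap to the nearest ear relative to the group's range, in 8 of the 238 sets of ears examined (16 genes and the set median in 14 groups), where chance alone flags about 1 set in 20. Imiquimod library 45 of day 8 was high in Col12a1 (179.8 CPM), imiquimod library 7 of day 2 was high in Col1a1 (1990.4 CPM), and inhibitor library 16 of the start on day 5 was low in Col1a1 (1374 CPM) and Col1a2 (1337 CPM). In the start-day experiment imiquimod library 11 was low in Ogn (21.8 CPM), inhibitor library 30 of the start on day 0 was high in Dcn (1304 CPM), sham library 2 was high in Lum (382 CPM) and sham library 5 was high in Pi16 (210.3 CPM).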

How the results depend on the processing

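No paired analysis was possible because library numbers repeat only between the 2 experiments, and the groups compared share none. Of 209 counts and medians recomputed under other settings, 191 stayed within the limits set for them, as did 399 of 452 recomputed without 1 library. These limits were on size and did not include direction. No call of a single member turned its direction. The day 5 member median, near 0, changed sign with upper-quartile factors and without sham library 21, and that of day 8 without imiquimod library 48. Of 201 member calls in 10 comparisons, 164 were kept without any one library and 162 under every other setting. The cause was not tested for those that follow. Day 2 with the inhibitor against imiquimod gave 6 members, but 3 with limma voom and 0 with the compared groups alone or without imiquimod libraries 9 and 11 (0 and 7 calls over all genes). Day 8 gave 1 member, but 3 with DESeq2, 5 with voom, 2 with the compared groups alone and 0 without a filter. Without a filter, which adds genes to the adjustment, sham day 8 against day 2 gave 3, the imiquimod effect of day 8 minus day 5 gave 0, the inhibitor effect among days 1 and that between experiments 0. The inhibitor effect among days gave 6 with DESeq2, 6 with voom and 5 with RLE factors, and that between experiments 2 with voom. The member median of imiquimod against sham was -0.40 on day 2 and -0.044 on day 5 with upper-quartile factors, which put the median of all genes at -0.12 on day 5, and -0.24 on day 2 without sham libraries 2 and 5. Leaving out single libraries, member calls ran from 3 to 7 for the inhibitor on day 2, 0 to 3 on day 8, 1 to 6 for sham days, 1 to 4 for day 8 minus day 5, 0 to 9 for the inhibitor among days, 0 to 1 among start days and 0 to 2 between experiments, and the imiquimod medians from -0.36 to -0.28 on day 2, -0.0019 to 0.092 on day 5 and -0.032 to 0.074 on day 8. Smaller changes are limited by the 4 sham ears of day 5 and by the spread between ears.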
